A study of Aethionema arabicum with 12 samples.

Results

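The enzymes that inactivate gibberellin were followed here through 2 gene models of Aethionema arabicum, an annual relative of Arabidopsis. AA18G00108 and AA54G00411 are the models, of 23594 in the deposited table, whose listed Arabidopsis match is GA2ox2 (AT1G30040), a gibberellin 2-oxidase. They were taken by that match and not by their levels. Poly(A) RNA of imbibed, intact seeds that had not germinated was sequenced after 23 h of treatment. The groups were CYP (Cyprus) seeds under white light (100 µmol m-2 s-1), CYP seeds in darkness, TUR (Turkish ES1020) seeds in the same light and TUR seeds in darkness, with 3 libraries in each. The labels name no further treatment for any group. No age, dormancy state or seed batch is given, and each library came from whole seeds.

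Gibberellin (GA) is the hormone that promotes germination in seeds of this plant family. The 20-oxidases and 3-oxidases make the active forms, and the 2-oxidases add a hydroxyl group that takes active forms and their precursors out of use. In Arabidopsis seeds, light perceived by phytochrome is known to raise 3-oxidase genes and to lower GA2ox2, whose product keeps GA low in darkness. CYP seeds are known as light-inhibited in germination, and TUR seeds as light-neutral. The design therefore asks how light changes the inactivating genes in each accession, and whether the accessions differ.

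The library totals lay between 7099578 and 13953792 counts, and 3 reads stood for 0.215 to 0.423 CPM (reads scaled to the library total). Correlations between libraries of 1 group were 0.980 to 0.992, and CYP dark replicate 3 was the library farthest from its own group, with 0.980 and 0.981. Without it, every call given below for the 2 models and their sum was kept. The sum of the seed reserve markers, 8 models with 1 at 0 reads, was high in every library and is given by group below. Single models were low, as the CRB model AA306G00001 had 1 read in all. The SESA3 model AA32G01116 averaged at most 7.37 CPM in a group. Leaf photosynthesis markers, 6 models with 1 at 0 reads, summed to between 7.80 and 12.5 CPM.

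The models responded to light in different ways. AA18G00108 had at most 4 reads in any dark library and rose in light in both accessions. AA54G00411 was the model read in darkness, at a level many times higher in CYP than in TUR, and it fell in light in CYP. In TUR it was low in both conditions.

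AA18G00108 had 182, 137 and 225 reads in CYP light, against 4, 0 and 1 reads in CYP dark. In TUR it had 79, 44 and 58 reads in light, against 4, 3 and 2 reads in darkness. Every light library lay far above every dark library of either accession. Light and dark libraries did not overlap for 38.3% of tested models in CYP and 37.2% in TUR. Scaled to CPM with TMM factors, it averaged 14.2 ± 2.37 CPM in CYP light and 0.184 ± 0.202 CPM in CYP dark (SD, n = 3 each). The average was 5.26 ± 0.794 CPM in TUR light and 0.249 ± 0.0818 CPM in TUR dark (SD, n = 3 each). Both dark averages were at about the level of 3 reads.

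The log2 fold change of AA18G00108, light over dark, was 6.08 in CYP (SE 0.38, edgeR's quasi-likelihood test, adjusted p = 1.02e-09). With so few dark reads this SE understates the error, and the SE from DESeq2 was 0.68. The call threshold was an adjusted p under 0.05 over the 15671 models tested, and 24.9% of these were called in CYP, of which those higher in light made up 10.6% of all tested. Only 2 models had a larger rise in CYP, a rank that rests on 5 dark reads and carries no test. The ratio of summed, depth-scaled reads was 71.6 (95% interval 30.5 to 221, counting error only). In TUR the log2 fold change was 4.35 (SE 0.38, edgeR's quasi-likelihood test, adjusted p = 1.19e-07), and the SE from DESeq2 was 0.53. In TUR 18.4% of models were called and 9.17% were higher in light. The ratio of summed reads there was 21.2 (95% interval 10.9 to 47.2). The size of the CYP change rests on 5 dark reads, 4 of them in CYP dark replicate 1, without which it was 7.53. AA18G00108 reached 1 CPM in its 6 light libraries alone and so entered the test through them.

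Whether the rise of AA18G00108 differed between accessions was not settled at this depth. The difference in log2 fold change, CYP minus TUR, was 1.73 (SE 0.84, 95% interval -0.04 to 3.50), with an adjusted p of 0.382 in edgeR's quasi-likelihood test. For this comparison 2.24% of all tested models were called. In light alone, AA18G00108 was 2.71-fold higher in CYP than in TUR (log2 1.44, SE 0.20, edgeR adjusted p = 8.29e-06), with no overlap between the groups. On the RPKM deposited by the authors, which in TUR is not count per length and total, these groups overlapped. It ran from 6.81 to 9.51 in CYP light and from 7.11 to 8.80 in TUR light. In light, 52.7% of all tested models were called between the accessions, and 24.9% of all tested were called higher in CYP. In darkness the libraries of the accessions overlapped, both near the level of 3 reads (edgeR adjusted p = 0.793), too few for a fold to be read.

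AA54G00411 had 155, 126 and 119 reads in CYP light, against 384, 272 and 248 reads in CYP dark. In TUR it had 38, 12 and 36 reads in light, against 20, 35 and 24 reads in darkness. The CYP dark libraries were the highest of all 12, while light and dark libraries of TUR overlapped. It averaged 10.6 ± 1.82 CPM in CYP light and 36.2 ± 3.18 CPM in CYP dark (SD, n = 3 each). The TUR averages were 2.36 ± 0.747 CPM in light and 2.23 ± 0.938 CPM in darkness (SD, n = 3 each).

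In CYP, AA54G00411 was 3.42-fold lower in light (log2 -1.77, SE 0.18, edgeR adjusted p = 5.38e-07), where 14.3% of tested models were called lower. In TUR the log2 fold change was 0.17 (SE 0.29, 95% interval -0.44 to 0.79, edgeR adjusted p = 0.733), so a fall of the size seen in CYP lay outside the interval. Between accessions the response differed by -1.95 (CYP minus TUR, SE 0.34, edgeR adjusted p = 0.00418). It was among the 1.83% of models called with a more negative response in CYP. In darkness AA54G00411 was 16.5-fold higher in CYP than in TUR (log2 4.05, SE 0.22, edgeR adjusted p = 6.25e-11), where 44.5% of models were called and 22.4% were higher in CYP. In light it was 4.29-fold higher in CYP (log2 2.10, SE 0.23, edgeR adjusted p = 5.28e-07). No CYP library overlapped a TUR library in either condition, as held for 50.4% of models in darkness and 63.7% in light.

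**Figure D1:**
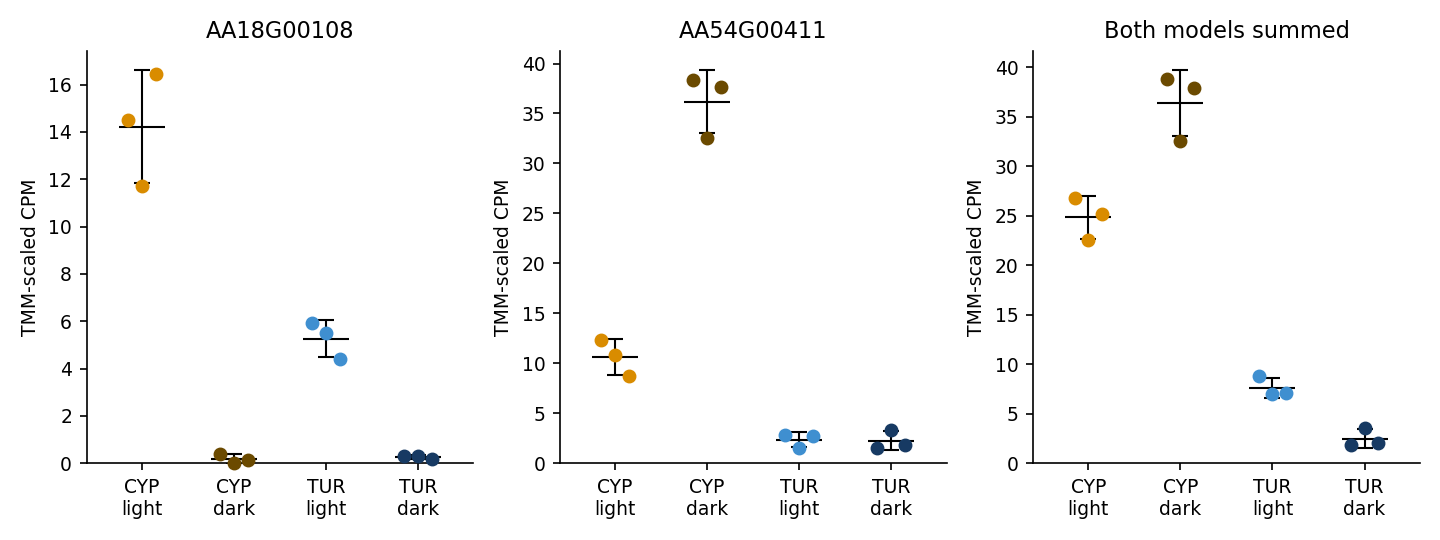
TMM-scaled CPM of AA18G00108, AA54G00411 and their sum (vertical axes, linear, each with its own range) in the 4 groups, with 1 point per library and a bar at the mean ± SD of 3 libraries. AA18G00108 stands above 4 CPM only in the light libraries, AA54G00411 is highest in CYP dark at 36.2 ± 3.18 CPM, and the sum is lower in light in CYP and higher in light in TUR.

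The plot of CPM by group shows the orders of the levels. For AA18G00108 the order was CYP light, TUR light, TUR dark and CYP dark, and the dark neighbours did not differ beyond their spread. For AA54G00411 it was CYP dark, CYP light, TUR light and TUR dark, and the TUR neighbours did not differ beyond their spread. Light separated the libraries of AA18G00108 in both accessions, and accession separated those of AA54G00411 in both conditions. Light also separated those of AA54G00411 in CYP, and accession those of AA18G00108 in light.

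Because whole seeds were sequenced, fewer cells of a type and less RNA per cell cannot be told apart. Some markers of seed parts also differed between the groups. The 8 seed reserve models summed to between 9348 and 10098 CPM in CYP light and 5943 and 8040 CPM in CYP dark, and to between 3269 and 6077 CPM in TUR light and 2596 and 4375 CPM in TUR dark. Of 6 tested, 2 were called higher in CYP light and 1 in TUR light, against 10.6% and 9.17% of all tested models. In darkness 4 were called higher and 1 lower in CYP than in TUR. There 44.5% of all tested models were called and 22.4% were higher in CYP. The 3 seed coat models, none at 0 reads, summed to between 19.0 and 22.3 CPM in CYP light and 6.54 and 8.85 CPM in CYP dark, and to between 17.3 and 19.6 CPM in TUR light and 9.23 and 11.03 CPM in TUR dark. Most of that sum was TTG2 (AA60G00054), which rose in both (log2 1.56 in CYP, edgeR adjusted p = 1.11e-06, and 1.00 in TUR, edgeR adjusted p = 0.000117). TT10 (AA39G00464) was called in CYP (edgeR adjusted p = 0.0219) and not in TUR (0.433), and BAN was not tested. The 5 embryo axis models, none at 0 reads, summed to between 109 and 117 CPM in CYP light and 156 and 219 CPM in CYP dark, and to between 134 and 153 CPM in TUR light and 150 and 196 CPM in TUR dark, where the groups overlapped. Of these, PDF1 (AA21G00071, log2 -2.66) and SCR (AA166G00013, -0.68) fell in CYP light and PDF1 alone (-1.48) in TUR light. Of 2 endosperm models, ZOU was at 0 reads, and NCED6 ran from 10.1 to 11.6 CPM in CYP light and 15.3 to 26.0 CPM in CYP dark, and from 1.75 to 4.35 CPM in TUR light and 10.5 to 12.8 CPM in TUR dark. The part of these tissues in the results for the GA2ox2 models was not tested.

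The models are counted on different lengths, 1696 bases for AA18G00108 and 2793 bases for AA54G00411. Whether introns are part of these lengths is not stated. Per length, as RPKM computed from the counts, AA18G00108 averaged 8.28 ± 1.36 and AA54G00411 3.75 ± 0.678 in CYP light (SD, n = 3). In CYP dark AA18G00108 averaged 0.104 ± 0.116 RPKM and AA54G00411 12.5 ± 0.911 RPKM (SD, n = 3). In TUR light the averages were 3.20 ± 0.502 RPKM for AA18G00108 and 0.870 ± 0.275 RPKM for AA54G00411 (SD, n = 3). In TUR dark they were 0.148 ± 0.0469 RPKM for AA18G00108 and 0.809 ± 0.331 RPKM for AA54G00411 (SD, n = 3). AA18G00108 was thus the leading model in all 6 light libraries and AA54G00411 in all 6 dark libraries.

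The change of the leading model can be given as the share of AA18G00108 in the reads of both. In CYP light the share was 54.0% (95% exact Clopper-Pearson interval 48.5 to 59.4), 52.1% (45.9 to 58.3) and 65.4% (60.1 to 70.4). In CYP dark it was 1.03% (0.282 to 2.62), 0% of 272 reads (0 to 1.35) and 0.402% (0.0102 to 2.22). No interval of a light library reached one of a dark library. In TUR light it was 67.5% (58.2 to 75.9), 78.6% (65.6 to 88.4) and 61.7% (51.1 to 71.5), and in TUR dark 16.7% (4.74 to 37.4), 7.89% (1.66 to 21.4) and 7.69% (0.946 to 25.1). The TUR dark intervals are wide because they rest on 24, 38 and 26 reads.

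The mean share was 57.2 ± 7.20% in CYP light and 0.478 ± 0.520% in CYP dark, and 69.3 ± 8.57% in TUR light and 10.8 ± 5.12% in TUR dark (SD, n = 3 each). Averaged over the accessions, light libraries exceeded dark libraries by 57.6 percentage points. A two-sided exact permutation test of light against dark within accessions gave p = 0.005, the smallest that its 400 regroupings can give, and 0.01 after Benjamini-Hochberg adjustment over 4 measures tested this way. The same test of the CPM levels gave +9.53 CPM for AA18G00108 (exact p = 0.005, adjusted 0.01) and -12.7 CPM for AA54G00411 (exact p = 0.055, adjusted 0.0733). The value for AA54G00411 averages -25.6 CPM in CYP and 0.122 CPM in TUR, so it describes CYP alone. The gain in share was 56.7 points in CYP and 58.5 points in TUR. Within 1 accession the exact test cannot go below p = 0.1, and both accessions reached that value.

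**Figure D2:**
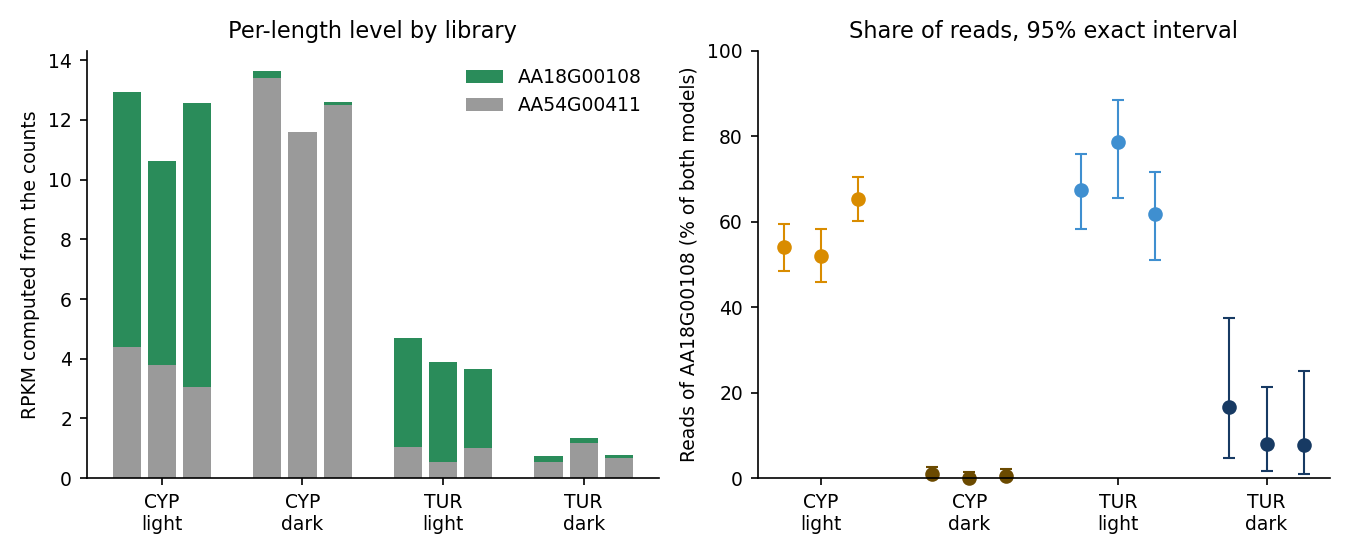
Left, RPKM computed from the counts in each of the 12 libraries (linear axis from 0), with AA54G00411 in grey and AA18G00108 stacked on it in green. Right, the share of AA18G00108 in the reads of both models (percent) per library with its 95% exact binomial interval. The stacked heights of CYP light and CYP dark differ by less than their SD (12.0 ± 1.24 and 12.6 ± 1.03 RPKM) while the colours change places, and TUR light stands above TUR dark (4.07 ± 0.540 and 0.957 ± 0.341 RPKM).

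Pairs of models that moved in opposite directions were uncommon in the table. Among 1259 pairs of tested models that share an Arabidopsis match, 13 pairs (1.03%) had 1 model called higher and the other lower in CYP light, and the GA2ox2 pair was among them. In TUR light 14 pairs (1.11%) did so, and the GA2ox2 pair was not among them, since AA54G00411 was not called there. No source used here says how counting treated reads that match both models, so part of a signal could be shared between near-identical stretches.

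The sum of both models behaved differently in the accessions. Summed reads gave 26.8, 22.5 and 25.2 CPM in CYP light, against 38.7, 32.5 and 37.9 CPM in CYP dark. In TUR they gave 8.77, 6.98 and 7.10 CPM in light, against 1.85, 3.58 and 2.02 CPM in darkness. The light libraries lay below the dark ones in CYP and above them in TUR, with no overlap in either.

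The summed reads fell 1.45-fold in CYP light (log2 -0.54, SE 0.14, edgeR adjusted p = 0.00771). In TUR light they rose 3.10-fold (log2 1.63, SE 0.21, edgeR adjusted p = 1.98e-05). The difference between the responses, CYP minus TUR, was -2.17 (SE 0.25, edgeR adjusted p = 0.000106). Summed per length, the CYP fall was not called, with 12.0 ± 1.24 RPKM in CYP light and 12.6 ± 1.03 RPKM in CYP dark (SD, n = 3 each; limma on log2(RPKM + 1), difference -0.06, adjusted p = 0.773). The call in CYP thus depends on whether reads are summed as such or per length of the model. The TUR rise and the difference between accessions were called on both scales. Averaged over the accessions, the sum was 3.20 CPM lower in light (-3.20 CPM, exact permutation test, two-sided p = 0.29, adjusted 0.29 over the 4 measures, n = 6 each).

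Between accessions, the sum was 14.8-fold higher in CYP than in TUR in darkness (log2 3.89, SE 0.18, edgeR adjusted p = 1.14e-11). In light it was 3.29-fold higher in CYP (log2 1.72, SE 0.16, edgeR adjusted p = 5.07e-08). The order of the 4 groups was CYP dark, CYP light, TUR light and TUR dark, and each neighbour differed from the next in an edgeR test. On the per-length scale the first neighbours, CYP dark and CYP light, did not. No source used here names the accession from which the gene models were built, and whether reads of both accessions matched them equally was not tested.

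Other GA-inactivating genes contributed few reads. Of 12 Arabidopsis genes of GA inactivation listed, 6 had a match, in 8 models, and the GA2ox2 models were the only ones that passed the filter of 1 CPM in 3 libraries. Models matching GA2ox1 (AA31G00720), GA2ox4 (AA18G00203) and GA2ox7 (AA2G00197) had 0 reads in all 12 libraries, and those matching GA2ox8 had 2 and 4 reads in all. The model matching GA2ox6 (AA7G00001) had 1 read in CYP light, 2 in CYP dark, 32 in TUR light and 11 in TUR dark, and was not tested. The GA2ox2 models held 99.4 to 100% of the reads of these 8 models in CYP libraries and 85.7 to 91.8% in TUR libraries.

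Genes that make active GA changed in both directions, all by less than AA18G00108. Of 4 tested models of 20-oxidases and 3-oxidases, 1 rose and 3 fell in CYP light, with a median log2 fold change of -0.62 against -0.01 over all tested models, of which 24.9% were called. In TUR light 2 rose, 1 fell and 1 was not called, with a median of 0.11 (0.10536) against 0.00 over all tested models, of which 18.4% were called. GA3ox2 (AA31G00895), which carries out the last activating step, averaged 21.3 ± 3.59 CPM in CYP light and 6.08 ± 0.251 CPM in CYP dark, and 9.56 ± 1.04 CPM in TUR light and 5.92 ± 1.44 CPM in TUR dark (SD, n = 3 each). It rose in both, with log2 fold changes of 1.81 in CYP (edgeR adjusted p = 5.6e-07) and 0.69 in TUR (edgeR adjusted p = 0.0125).

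GA3ox1 (AA37G00176), of the same step, averaged 7.39 ± 0.831 CPM in CYP light and 10.9 ± 1.50 CPM in CYP dark, and 42.4 ± 0.810 CPM in TUR light and 32.3 ± 3.95 CPM in TUR dark (SD, n = 3 each). It fell in CYP (log2 -0.55, edgeR adjusted p = 0.00952) and rose in TUR (log2 0.39, edgeR adjusted p = 0.0188), and the difference between these was called (-0.94, edgeR adjusted p = 0.00912). Its accession difference ran opposite to that of the GA2ox2 sum, with log2 differences, CYP minus TUR, of -1.58 in darkness and -2.52 in light. The TUR calls of both 3-oxidase genes rest on few libraries. The TUR call of GA3ox1 held only with all 3 TUR light libraries and both of TUR dark replicates 2 and 3 (otherwise edgeR adjusted p = 0.0539 to 0.128), and its CYP call was lost without CYP light replicate 1 (0.0518). That of GA3ox2 needed TUR dark replicate 2 and TUR light replicates 1 and 3 (otherwise 0.0663 to 0.0871).

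The 20-oxidases, which supply the 3-oxidases, were lower in light where called. GA20ox1 (AA1024G00001) averaged 22.2 ± 0.605 CPM in CYP light and 40.5 ± 5.36 CPM in CYP dark (SD, n = 3 each; log2 -0.86, edgeR adjusted p = 2.35e-05), and in TUR its log2 fold change was -0.18 (edgeR adjusted p = 0.345). GA20ox2 (AA55G00064) fell in both, with log2 fold changes of -0.69 in CYP (edgeR adjusted p = 0.00966) and -1.55 in TUR (edgeR adjusted p = 0.00869). It averaged 9.78 ± 0.572 CPM in CYP light and 16.0 ± 3.19 CPM in CYP dark (SD, n = 3 each). The TUR value rests on few reads, 20 in light and 62 in darkness. It ran from -2.01 to -0.50 in the alternatives, all called. The CYP call was lost with limma on log2(RPKM + 0.1) (adjusted p = 0.165). Of 3 tested models of earlier steps, KAO2 (AA32G00528), an oxidase that makes the first GA, rose in CYP light (log2 0.46, edgeR adjusted p = 0.00258), and the other two were not called. In TUR light their edgeR adjusted p ran from 0.145 to 0.559.

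**Figure D3:**
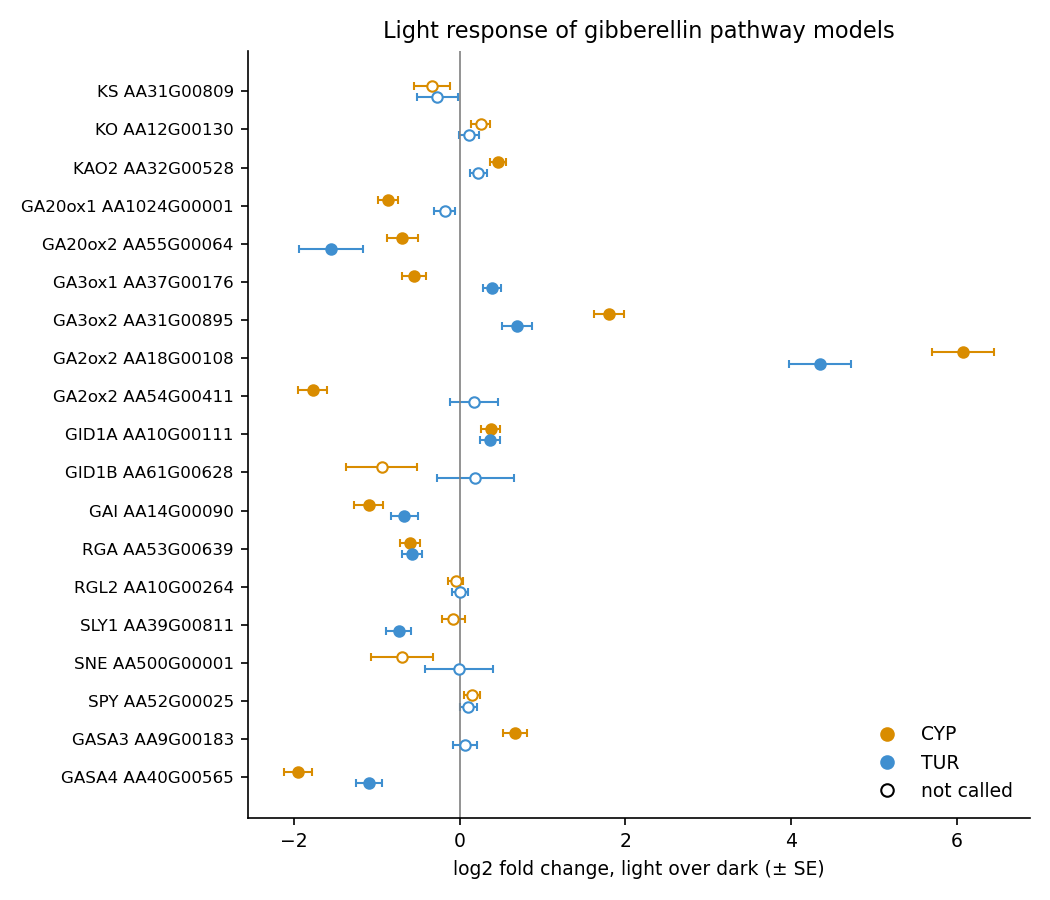
Log2 fold change, light over dark, of the 19 tested models for GA synthesis, inactivation, perception and response (horizontal axis, ± SE derived from edgeR's F statistic), in CYP above and TUR below for each model, with filled points for an adjusted p under 0.05. For AA18G00108, with few dark reads, this SE is smaller than that of DESeq2 (0.68 in CYP, 0.53 in TUR). The rise of AA18G00108 (6.08 in CYP, 4.35 in TUR) is the largest of them, and AA54G00411 has a filled point in CYP alone.

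The plot of pathway models sets the GA2ox2 models beside the genes of GA perception. Of 8 tested models, 1 rose and 2 fell in CYP light, and 1 rose and 3 fell in TUR light, with medians of -0.34 in CYP and 0.00 in TUR (-0.0027), against -0.01 and 0.00 over all tested models. Over all tested models 24.9% were called in CYP and 18.4% in TUR, and with 8 models no departure from these shares is read. GAI (AA14G00090) and RGA (AA53G00639), genes of DELLA proteins, which restrain germination until GA has them broken down, fell in both. The log2 fold changes were -1.10 in CYP and -0.67 in TUR for GAI (edgeR adjusted p = 0.000134 and 0.00822), and -0.60 and -0.57 for RGA (0.00145 and 0.00325). RGL2 (AA10G00264), a DELLA of seeds, was not called (log2 -0.05 and 0.01, edgeR adjusted p = 0.759 and 0.978). The receptor gene GID1A (AA10G00111) rose in both, by log2 0.37 and 0.36, a call lost in CYP when CYP dark replicate 2 or CYP light replicate 1 was omitted, and in TUR when any TUR library but dark replicate 3 was. SLY1 (AA39G00811), which marks DELLA proteins for breakdown, fell in TUR (log2 -0.74, edgeR adjusted p = 0.00201) and was not called in CYP (-0.08, 0.734).

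Of the GA-regulated peptide genes, 2 models were tested. GASA4 (AA40G00565), which responds to GA in Arabidopsis, averaged 36.4 ± 2.77 CPM in CYP light and 140.3 ± 35.0 CPM in CYP dark, and 266 ± 47.0 CPM in TUR light and 566 ± 76.6 CPM in TUR dark (SD, n = 3 each). It fell in both, with log2 fold changes of -1.95 in CYP (edgeR adjusted p = 1.1e-07) and -1.09 in TUR (edgeR adjusted p = 7.9e-05). GASA3 (AA9G00183) rose in CYP (log2 0.67, edgeR adjusted p = 0.00182) and was not called in TUR (0.07, 0.801).

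Among genes that control GA metabolism in Arabidopsis seeds, 15 models were tested. In CYP light edgeR called 3 higher and 6 lower, and in TUR light 3 higher and 3 lower, which left 6 and 9 without a call. Over all tested models 24.9% were called in CYP and 18.4% in TUR. The medians were -0.09 in CYP and 0.06 in TUR, against -0.01 and 0.00 over all tested models. Neither model matching PIF1, a repressor of germination in the dark, was called in light in either accession. SOM (AA7G00098), which acts below PIF1 on GA genes, was not called either (log2 -0.09 and -0.08, edgeR adjusted p = 0.692 and 0.736). The dormancy gene DOG1 (AA6G00020) averaged 11.2 ± 1.70 CPM in CYP light and 1.85 ± 0.0613 CPM in CYP dark, and 3.50 ± 1.43 CPM in TUR light and 1.303 ± 1.01 CPM in TUR dark (SD, n = 3 each). It rose in CYP (log2 2.59, edgeR adjusted p = 2.09e-05) and in TUR (1.40, 0.0162), where omitting TUR dark replicate 2 (0.97, 0.0679) ended the call, as did omitting TUR light replicate 1 (0.99, 0.143). The photoreceptor gene PHYA (AA65G00005) fell in both, with log2 fold changes of -1.49 in CYP (edgeR adjusted p = 3.21e-09) and -0.92 in TUR (edgeR adjusted p = 2.14e-06).

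The models whose profiles were most like each GA2ox2 model were taken by Pearson's r of log2 CPM over the 12 libraries, among 14954 tested models with an Arabidopsis match. These r values describe profiles over 4 groups and carry no test, and the calls of models chosen in this way follow in part from the choice. Closest to AA18G00108 were models matching cinnamate-4-hydroxylase (AA32G00657, r = 0.983), an entry enzyme of phenylpropanoid synthesis, and pseudo-response regulator 9 (AA21G00407, r = 0.980), a clock component. The next were a RING/U-box model (AA19G00406, r = 0.977), AA32G00906, which has no description (r = 0.976), a homeodomain-like model (AA16G00033, r = 0.974) and a zinc knuckle model (AA32G00419, r = 0.970). All 6 were called higher in light in both accessions, and for the difference between accessions their edgeR adjusted p ran from 0.0939 to 0.936. The regulator 9 model averaged 12.8 ± 1.20 CPM in CYP light and 0.297 ± 0.181 CPM in CYP dark, and 7.36 ± 2.40 CPM in TUR light and 0.395 ± 0.148 CPM in TUR dark (SD, n = 3 each).

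Closest to AA54G00411 were a cytochrome P450 model (AA32G00989, r = 0.981), a GDSL lipase model (AA15G00155, r = 0.974) and a MATE efflux model (AA43G00036, r = 0.973). The next were serine carboxypeptidase-like 29 (AA102G00231, r = 0.973), an S-ribonuclease binding protein model (AA57G00227, r = 0.969) and a U-box kinase model (AA41G00035, r = 0.968). All 6 were called lower in CYP light and not called in TUR light, and all were higher in CYP than in TUR in darkness. The call of AA41G00035 in CYP light (log2 -0.38, edgeR adjusted p = 0.0494) was lost in each fit that left out 1 CYP library. The GDSL lipase model averaged 44.3 ± 3.94 CPM in CYP light and 95.1 ± 9.70 CPM in CYP dark, and 12.2 ± 0.663 CPM in TUR light and 12.3 ± 0.704 CPM in TUR dark (SD, n = 3 each). Between the GA2ox2 models themselves r was -0.19.

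**Figure D4:**
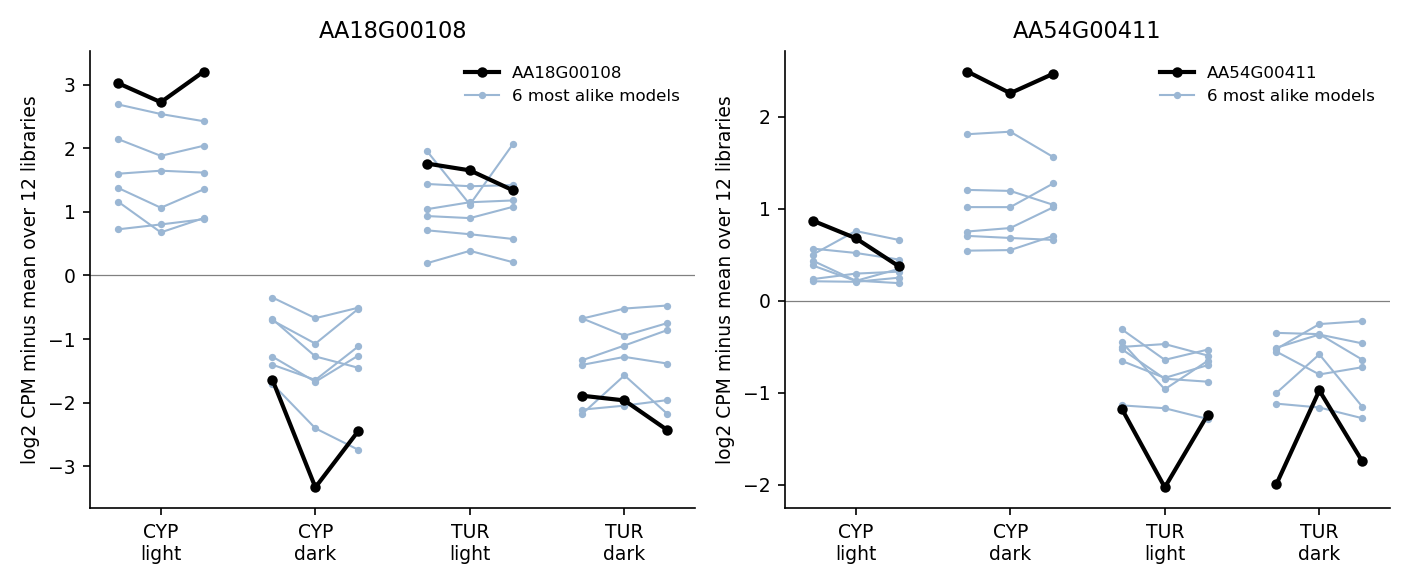
Log2 CPM minus the mean over 12 libraries (vertical axis) for each GA2ox2 model in black and the 6 models most alike in blue, with lines joining only the libraries of 1 group. The AA18G00108 set is high in both light groups and low in both dark groups, and the AA54G00411 set is high in CYP dark, intermediate in CYP light and low in TUR.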

How the data were processed

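For 23594 gene models and 12 libraries, raw counts and RPKM were deposited, per the file headers, beside the model's length and, for 21079 models, an Arabidopsis match. Libraries were made with the Lexogen SENSE mRNA kit, per the labels' protocols. Tools named, without their roles, in the submitters' processing notes are HTSeq 0.6.1, Bowtie2 2.2.3, Trimmomatic and bcl2fastq 2.17.1, beside the build TAIR10. No source used here gives the genome release or says whether counting used strand. The RPKM deposited by the authors equals count per length and column total in 100% of CYP values (within 1e-6 of the value) and in 0% of TUR values, where the library medians of the ratio were 1.97 to 2.14. The ratio was not constant within a library, from 0.728 (5th percentile) to 3.36 (95th percentile) in TUR dark replicate 1. RPKM was therefore computed from the counts. Accession differences of the GA2ox2 models are smaller on the deposited scale. There AA54G00411 had 1.68 to 2.68 RPKM in TUR dark and 11.6 to 13.4 RPKM in CYP dark. What the deposited TUR values were divided by is not given, and the cause was not tested.

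The deposited counts were tested with edgeR 4.0.16 in R 4.3.3 (TMM, quasi-likelihood, 4 group means fitted to all 12 libraries). Models with at least 1 CPM in at least 3 libraries entered, 15671 in all, with Benjamini-Hochberg adjustment in each of 5 comparisons. The sum of both models was tested as a further row. Alternatives used DESeq2 1.42.0, limma 3.58.1, other scalings and filters, a replicate block and the omission of each library. Exact permutation tests used scipy 1.17.1. The test was checked on simulated counts. Each SE given with an edgeR value is the absolute log2 fold change over the root of the F statistic. For AA18G00108 in light over dark, with few dark reads, this SE understates the error. Intervals of log2 fold changes use that SE and a t quantile, and so take in the spread between libraries. Intervals of read ratios and shares, and floors, cover counting error only. Nothing in the labels says that libraries came from separate seed batches, so p-values measure only the spread between these libraries, which may be technical.

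The 2 models, the gene lists and the rule for named genes were chosen with earlier results of these data known. Named are the GA2ox2 models, models matched to listed genes and, for each GA2ox2 model, the 6 tested models with an Arabidopsis match and the highest r. Sequences of the models were not used here.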

Additional observations from a re-analysis of the deposited data

Results flagged for a closer look

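For 10 results the light response differed between the accessions by edgeR's test of the difference itself, CYP minus TUR on the log2 scale. Over all 15671 tested models 2.24% were called for this difference. The 10 results include the sum and models picked for likeness, so no share is read from their number. The difference was -1.95 for GA2ox2 model AA54G00411 and -2.17 for the sum of both GA2ox2 models, and both calls were kept without each library in turn. It was -0.94 for GA3ox1 (AA37G00176), a call lost without CYP light replicate 1 (edgeR adjusted p = 0.0526). It was -0.89 for BME3 (AA216G00002), a GATA factor of Arabidopsis seed germination, a call kept without each library in turn.

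The next calls were lost when some single libraries were omitted. The difference was 1.12 for GA3ox2 (AA31G00895), -0.68 for GA20ox1 (AA1024G00001), -0.57 for PHYA (AA65G00005) and -1.17 for the embryo epidermis marker PDF1 (AA21G00071). The highest edgeR adjusted p among fits that left out 1 library was 0.0767 for GA3ox2, 0.144 for GA20ox1, 0.140 for PHYA and 0.121 for PDF1. With all libraries, a replicate block ended the calls of PHYA (edgeR adjusted p = 0.0627) and PDF1 (0.0672), RLE scaling that of GA20ox1 (0.0513), and limma on log2(RPKM + 0.1) those of GA3ox2 (0.0645), GA20ox1 (0.0614) and PDF1 (0.0596). GA20ox1 was not called in 14 of 20 alternatives.

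The difference was -1.09 for the GDSL lipase model AA15G00155 and -0.76 for the MATE efflux model AA43G00036. Both were named because their profiles over the same libraries resemble that of AA54G00411, so their differences follow in part from that choice and are given as a description.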

How the results depend on the processing

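Of the results for the GA2ox2 models and their sum, 237 comparisons of an alternative with the reported value kept direction and call, 2 were no longer called, 1 became called and 2 reversed. The fall of the sum in CYP light was not called with limma on log2(RPKM + 1) (-0.0633, adjusted p = 0.773) or log2(RPKM + 0.1) (-0.0680, adjusted p = 0.830), where the longer model counts for less per read. The difference in the response of AA18G00108 was called with limma on log2(RPKM + 1) (1.20, adjusted p = 0.00653). In that fit the accessions differed by 1.14 in light and -0.06 in darkness. Its dark averages, 0.104 RPKM in CYP and 0.148 RPKM in TUR, lie far below the 1 added. With limma on log2(RPKM + 0.1) the difference was not called (1.77, adjusted p = 0.106). The cause was not tested. Omitting 1 library gave -0.0589 to 0.51 for AA54G00411 in TUR light (negative without TUR dark replicate 1), -1.74 to 0.26 for AA18G00108 between accessions in darkness (positive without CYP dark replicate 2, on too few reads for a direction), 5.54 to 7.53 for AA18G00108 in CYP light and 1.20 to 3.20 for its difference. The mean difference of AA54G00411 over both accessions, -12.7 CPM (exact permutation test, p = 0.055), was -13.6 to -12.2 with p = 0.04 to 0.085 when 1 library was omitted, passing 0.05 without TUR dark or light replicate 1 or 3. Models called in TUR light numbered 1875 (without TUR light replicate 3; 1898 without TUR dark replicate 2) to 2937, against 2882. For the difference they numbered 163 to 452, against 351, with 163 to 230 without any CYP light library, CYP dark replicate 2, TUR dark replicate 2 or 3, or TUR light replicate 1 or 2. With limma on log2(RPKM + 0.1) the difference had 227 calls. With a replicate block, 2673 models were called in TUR light, 3720 in CYP light and 270 for the difference, and no call for the GA2ox2 models changed. Same-numbered libraries correlated by -0.353 to 0.182 in their deviations, so the numbers were not taken to pair libraries. Among other named models 836 comparisons kept and 109 lost the call. Depth limits AA18G00108 in darkness most, with 5 reads in CYP and 9 in TUR.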
